A study of Homo sapiens with 18 samples.

Results

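ER28 and ER29 are entrectinib-resistant lines that were both grown out of tumours of the same human neuroblastoma line, and the comparison between them asks how far their RNA levels differ. It covers the 17492 genes whose FPKM (a fragment count scaled by transcript length and by library depth) reached 1 or more in 3 or more of these 6 libraries, out of 63657 gene identifiers in the deposited table (27.5%). Of these members, 12335 are annotated as protein coding, 4436 have another annotated type and 721 carry an identifier without an entry in the annotation used. The starting line, SY5Y-TrkB (labelled SY5Y_BR6 and called parental here), is a neuroblastoma line that carries the neurotrophin receptor TrkB. It was injected under the skin of athymic nu/nu mice, which lack T cells, and each resistant line was set up from a tumour that had first responded to oral entrectinib and had then regrown. The mice behind ER28 and ER29 both received 60 mg/kg every 4 hours, so the dosing does not separate the lines. In culture, the resistant cells were taken from 10 nM up to 750 nM entrectinib and were kept in 200 nM for harvest, while no drug is stated for the parental line. Every line is a single derivative with 3 libraries of ribosome-depleted total RNA, 18 libraries over 6 lines in all. Whether these 3 libraries were grown as separate cultures is not stated. The p-values therefore speak only to the spread between the libraries, which may be technical.

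Entrectinib blocks Trk receptor kinases, among them TrkB and TrkC (genes NTRK2 and NTRK3), and the kinases ALK and ROS1. In neuroblastoma, a childhood tumour of the sympathetic lineage, a Trk receptor bound by its neurotrophin and the receptor ALK both signal through RAS and the kinase ERK. Active ERK raises the transcription of its own inhibitors (the DUSP, SPRY and SPRED genes), of the ETV transcription factors and of cyclin D1, and cyclin D1 with CDK4 or CDK6 frees E2F factors to switch on genes of DNA replication and mitosis.

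The members' values were compared on the log2(FPKM + 1) scale, and a fold below is the mean of the ER28 libraries minus the mean of the ER29 libraries on that scale, so a positive fold is higher in ER28. A gene is called where limma's moderated test gave a Benjamini-Hochberg (BH) adjusted p under 0.05 over the 19799 genes tested across all 18 libraries. Of the 17492 members, 2453 were called higher in ER28 (14% of the members) and 1899 were called lower (10.9%), together 24.9%. Over all tested genes the share called was 22.5%, with 12.6% higher and 9.9% lower. In 4225 of the 4352 called members (97.1%) no ER28 library overlapped an ER29 library. Among all members, called or not, every ER28 library lay above every ER29 library in 3585 (20.5%), and the reverse held in 3432 (19.6%), together 40.1%. Most differences were small on this scale: the median absolute fold was 0.203 over the members and 0.471 over the called ones. In FPKM + 1, 226 of the called members were at least 2-fold higher in ER28 and 178 at least 2-fold lower. Because 1 is added, these counts leave out some low genes whose FPKM differ at least 2-fold. Among protein-coding members 18% were called higher in ER28 and 11.2% lower, together 29.2%, and the gene lists below are read against these shares. The share called was close to 29.2% in the BMP (31.8%), ganglioside (31.2%), GDNF, ABC transporter, retinoic acid and integrated stress lists (33.3% each). It was not far above 29.2% in the ion channel (36%), MYC (36.4%), IGF (37.5%) and Wnt (38.5%) lists. It was below 29.2% in the Notch list (22.2%).

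**Figure D1:**
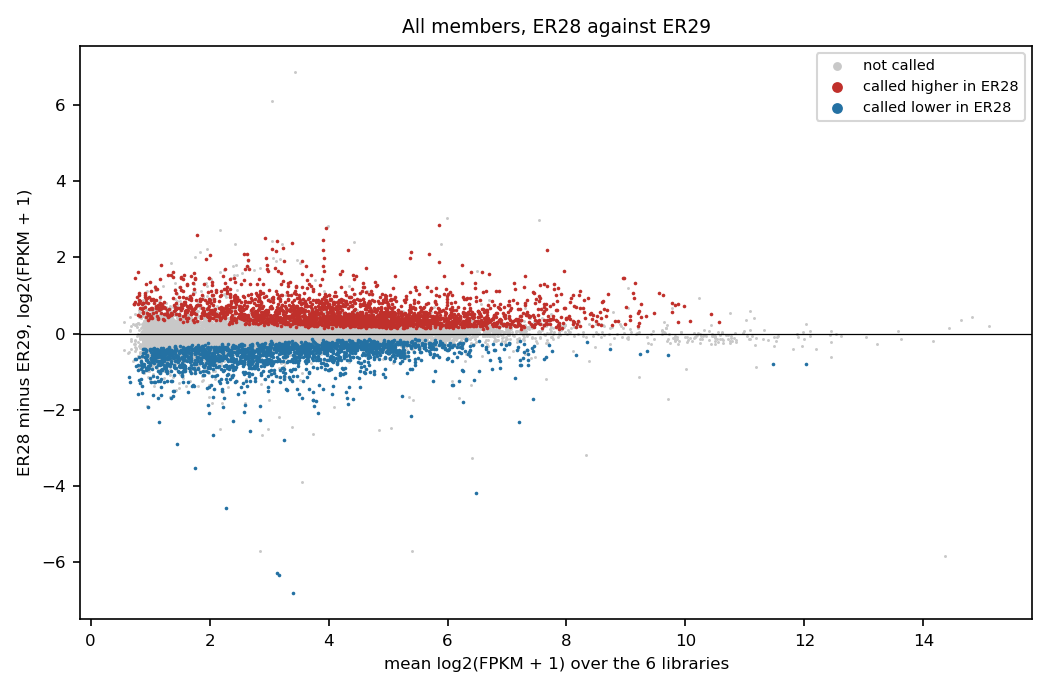
Each point is 1 of the 17492 members, with the mean log2(FPKM + 1) over the 6 libraries on the x axis and the fold of ER28 minus ER29 on the y axis. Red points were called higher in ER28 (2453), blue points lower (1899) and grey points were not called. Called points lie on both sides of 0.

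The counts depended on single libraries and on scaling. Without ER28 replicate 1 the calls came to 1708 higher and 1241 lower, and without ER29 replicate 2 to 1702 and 1243. With each library rescaled to the same sum, 1668 were higher and 907 lower, so that 64.8% of the calls were higher in ER28 instead of 56.4%. The FPKM of the 6 libraries summed to between 848024 (ER28 replicate 3) and 1070733 (ER29 replicate 1). One noncoding gene moved those sums: RF00100 (ENSG00000202198, chromosome 6) was listed at 0 in ER28 replicate 3 and stood between 135740 and 192002 in the other 5 libraries. Across genes, libraries of the same line correlated at 0.969 to 0.977 and libraries of different lines at 0.947 to 0.961 (Pearson's r of the log2 values), where the points are genes and not replicates. From the smallest steps in values under 0.05 FPKM, the depth of the other 5 libraries was 0.86 to 1.4 times that of ER28 replicate 1, with 27.8 to 31.4% of 676 to 966 genes at the most common ratio. Of the 10 pairs of resistant lines, ER28 against ER29 had the fourth highest number of called genes, 4446 over all tested genes. ER5 against ER42 had 8375 (42.3%) and ER29 against ER47 had 1106 (5.59%).

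The genes for the drug's targets differed between the lines in both directions. NTRK2 (ENSG00000148053, chromosome 9), the gene for TrkB, stood at 326, 287 and 341 FPKM in ER28 replicates 1 to 3 and at 218, 186 and 196 in ER29. All ER28 libraries lay above all ER29 libraries, and the ER29 libraries were the lowest of all 18. The fold was 0.67 ± 0.10 (SE; limma, BH-adjusted p = 0.000315), and 0.42 after quantile normalisation. The starting line is named for TrkB, and FPKM per gene do not tell an introduced copy of NTRK2 from the one on chromosome 9. ALK (ENSG00000171094, chromosome 2) went the other way, with 43.1, 45.7 and 28.8 in ER28 and 75.9, 86.2 and 67.3 in ER29. ER29 was higher in every library (fold -0.97 ± 0.16, BH-adjusted p = 0.000563), and the parental mean of 36.7 was within the range of ER28. NTRK3 (ENSG00000140538, chromosome 15), the gene for TrkC, was low in both lines, at 2.95, 3.38 and 2.10 in ER28 and 3.97, 5.36 and 5.01 in ER29. Its fold of -0.61 passed (BH-adjusted p = 0.0101), but not without ER28 replicate 3 (0.0592) or ER29 replicate 2 (0.0529), or with a pseudocount of 0.1 (0.129). ROS1 was listed at 0 in all 6 libraries and is no member.

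Of the 20 genes of the list of Trk, ALK and ROS1 receptors and their ligands, 11 were members. Of these, 5 were called higher in ER28, among them NTRK2 and the ligands PTN, BDNF and MDK, and 3 were called lower: NGFR, ALK and NTRK3. BDNF, the ligand of TrkB, stood at 6.5, 7.79 and 7.03 in ER28 and at 3.83, 3.63 and 3.06 in ER29 (fold 0.85, BH-adjusted p = 0.000605). Both lines were above the parental mean of 1.36. PTN, for the growth factor pleiotrophin, had a fold of 0.99, with ER28 between 19.3 and 21.8 and ER29 between 9.08 and 11.0. MDK, for the related midkine, was abundant in both lines, at 649, 531 and 652 in ER28 and at 548, 443 and 432 in ER29. Its groups overlapped, since ER28 replicate 2 was below ER29 replicate 1 (fold 0.37, BH-adjusted p = 0.0292). NGFR, the p75 receptor that binds all neurotrophins, stood at 9.43, 6.25 and 8.67 in ER28 and at 16.5, 15.3 and 20.0 in ER29 (fold -1.01, BH-adjusted p = 0.00509).

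Other receptor tyrosine kinases also split. Of 19 members in that list, 7 were called higher in ER28 and 4 lower, and without ER28 replicate 1 the count of higher genes was 4, without ER28 replicate 2 that of lower genes was 2. PDGFRA, a receptor of platelet-derived growth factor, stood at 36.1, 36.2 and 37.0 in ER28 and at 12.2, 12.3 and 11.7 in ER29. The libraries of each line lay within 1 FPKM of each other, and ER29 was the lowest line of the series (fold 1.52 ± 0.17, BH-adjusted p = 3.14e-05). FGFR2, a fibroblast growth factor receptor, was at 6.60 ± 0.0978 in ER28 and 2.05 ± 0.449 in ER29 (SD, n = 3; fold 1.33). DDR2, a collagen receptor on chromosome 1, had a fold of 0.79, from 56.0 against 31.9. MET, the receptor of hepatocyte growth factor, was below 3 FPKM in all 6 libraries and was lower in ER28 (fold -0.78, and -1.23 with a pseudocount of 0.1). In the insulin-like growth factor (IGF) list, 5 of 16 members were called higher, STC2, IGFBP2, IGFBP3, INSRR and IRS2, and INSR was called lower (without ER28 replicate 1, 2 genes were lower, and without ER29 replicate 2, 3). IGFBP3, a secreted protein that binds IGFs, stood at 590, 577 and 615 in ER28 and at 323, 291 and 251 in ER29, against a parental mean of 3.00. It was thus far above the parental level in both lines, and higher in ER28 (fold 1.05 ± 0.20, BH-adjusted p = 0.00144). IGF2, the ligand, had a fold of -0.00 ± 0.55 between the lines, with 3.67 to 5.10 in ER28 and 3.72 to 4.88 in ER29 where the parental mean was 1286. In the GDNF family 2 of 6 members were called: GDF15, a stress-induced cytokine, was higher in ER28 (0.82) and GFRA2, the co-receptor of neurturin, was lower (-0.73, from 51.5 ± 2.36 against 87.1 ± 14.0).

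Most of the 12 protein-coding genes furthest above ER29 in ER28 also exceeded the other lines. These 12 were picked from called protein-coding members without overlap between ER28 and ER29. They were PEG10, GPC3, AC034102.2, FOXI3, CGNL1, SCN9A, VGF, RTL1, ETV1, ITPKB, DKK1 and DPYSL3, with folds from 2.84 to 2.13. In 8 of these 12, all 3 ER28 libraries were above all 15 other libraries of the series. The ER29 libraries among those 15 were settled by the selection, and the same share over all members was not counted. PEG10 (ENSG00000242265, chromosome 7), an imprinted gene derived from a retrotransposon, stood at 156, 137 and 169 FPKM in ER28 and at 21.1, 16.9 and 24.4 in ER29. The ER29 libraries were close to the parental mean of 22.4 and the ER28 libraries were all far above both (fold 2.84 ± 0.15, BH-adjusted p = 7.03e-08). RTL1, another imprinted gene of retrotransposon origin, stood at 18, 14.6 and 18 in ER28 and at 2.36, 2.52 and 3.82 in ER29, and both were under the parental mean of 465. GPC3, a cell surface glypican, stood at 36.0, 38.8 and 43.7 in ER28 and at 5.96, 4.02 and 5.08 in ER29 (fold 2.76 ± 0.17). Here too ER29 was near the parental mean of 4.81.

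FOXI3, a forkhead transcription factor, stood at 17.6, 14.7 and 19.2 in ER28 and at 2.5, 1.70 and 2.45 in ER29. CGNL1, a protein of cell junctions, was at 34.4 ± 0.852 in ER28 and 5.45 ± 0.781 in ER29 (SD, n = 3), and both lines were above the parental 0.902 ± 0.122. ITPKB, a kinase of inositol trisphosphate, stood at 30.5, 29.0 and 33.7 against 6.40, 6.08 and 5.72, and DKK1, a secreted inhibitor of Wnt signalling, at 447, 381 and 480 against 88.1, 86.3 and 113. In these 4 genes ER28 was the highest line of the series. DPYSL3, which acts in growth cones of neurites, was at 86.6 ± 8.33 in ER28 and 18.9 ± 0.568 in ER29, both below the parental 234 ± 10.3. AC034102.2 was the least secure of the 12: it stood at 4.99, 8.53 and 9.75 in ER28, but at 0.000418, 0.00218 and 1.81 in ER29 (fold 2.59 ± 0.85, BH-adjusted p = 0.0396). Its adjusted p was 0.0652, 0.0802 and 0.113 without ER28 replicate 1, 2 or 3, and 0.103 and 0.128 without ER29 replicate 1 or 2.

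**Figure D2:**
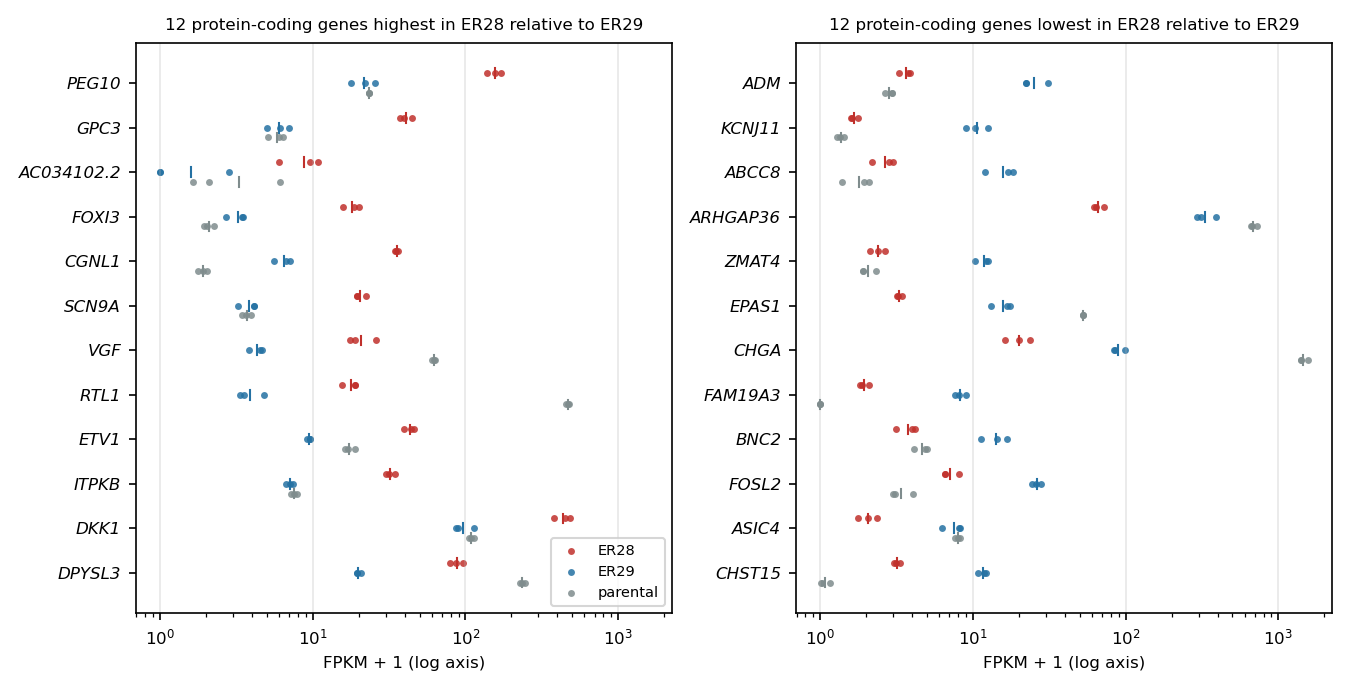
FPKM + 1 on a log axis for the 12 protein-coding genes with the highest and the 12 with the lowest fold of ER28 minus ER29 among called genes without overlap. Points are the 3 libraries of ER28 (red), ER29 (blue) and the parental line (grey), and vertical ticks are the means. ADM, KCNJ11 and ABCC8 show ER28 near the parental line and ER29 above both, and EPAS1 and CHGA show both resistant lines below the parental line.

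The 12 protein-coding genes lowest in ER28, again picked from called genes without overlap, had folds from -2.78 to -1.87. They were ADM, KCNJ11, ABCC8, ARHGAP36, ZMAT4, EPAS1, CHGA, FAM19A3, BNC2, FOSL2, ASIC4 and CHST15. ER28 was below all 15 other libraries in 3 of them (ARHGAP36, EPAS1 and ASIC4) and ER29 was above all others in 3 (ZMAT4, FOSL2 and CHST15). The order of ER28 and ER29 was again settled by the selection, and no share over all members was counted. ADM (ENSG00000148926, chromosome 11), the vasodilator peptide adrenomedullin, stood at 2.85, 2.73 and 2.28 in ER28 and at 29.9, 21.4 and 21.2 in ER29. ER28 was close to the parental mean of 1.84 (0.35 above it on the log2 scale, BH-adjusted p = 0.386), and ER29 was above it by 3.13 (BH-adjusted p = 5.73e-07). KCNJ11 and ABCC8 lie next to each other on chromosome 11 with 0 protein-coding genes between them, and encode the Kir6.2 and SUR1 subunits of the ATP-sensitive potassium channel. KCNJ11 stood at 0.597, 0.625 and 0.772 in ER28 and at 11.6, 8.01 and 9.29 in ER29. ABCC8 stood at 2.01, 1.81 and 1.17 in ER28 and at 17.2, 15.9 and 10.9 in ER29. Both neighbours were thus low in ER28 and in the parental line (means 0.361 and 0.801) and high in ER29, and their means were also high in ER5 (13.1 and 19.7) and ER47 (5.92 and 9.93) but not in ER42 (0.851 and 1.39).

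EPAS1 (ENSG00000116016, chromosome 2), the hypoxia-inducible factor HIF2A, stood at 2.21, 2.44 and 2.18 in ER28 and at 16.5, 15.8 and 12.2 in ER29, against 51.5 ± 0.296 in the parental line. ER28 had the lowest level of the series (fold -2.26 ± 0.17, BH-adjusted p = 1.14e-06). ARHGAP36, an activator of Hedgehog signalling that binds protein kinase A, stood at 63.3, 61.3 and 70.9 in ER28 and at 392, 309 and 290 in ER29, where the parental mean was 685. CHGA (ENSG00000100604, chromosome 14), the granule protein chromogranin A, was at 19.0 ± 3.77 in ER28 and 88.3 ± 8.65 in ER29 (SD, n = 3), far below the parental 1458 ± 81.9 in both. FOSL2, an AP-1 transcription factor, stood at 7.16, 5.53 and 5.56 in ER28 and at 27.1, 23.3 and 24.9 in ER29, and both lines were above the parental mean of 2.37. CHST15, a sulfotransferase of chondroitin chains, was at 2.17 ± 0.157 in ER28 and 10.6 ± 0.663 in ER29. ASIC4, of the acid-sensing channel family, was at 1.06 ± 0.308 in ER28 and 6.55 ± 1.11 in ER29.

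ERK output genes were mostly higher in ER28. Of 18 members in the list of ERK output and feedback genes, 11 were called higher and 1, MYC, was called lower, against 18% and 11.2% of protein-coding members, with a median fold of 0.64 against 0.02 over all protein-coding members. Leaving out 1 library left 9 to 11 called higher. ETV1 (ENSG00000006468, chromosome 7) stood at 38.8, 44.7 and 43.1 in ER28 and at 8.10, 8.55 and 8.56 in ER29. ER28 was above the parental mean of 16.4 (by 1.31 on the log2 scale, BH-adjusted p = 1.55e-07) and ER29 below it (by -0.88, BH-adjusted p = 4.64e-06), and the fold between the lines was 2.20 ± 0.10 (BH-adjusted p = 1.3e-08). ETV4, of the same family of transcription factors, stood at 30.8, 27.0 and 29.6 in ER28, near the parental mean of 26.6, and at 6.04, 5.99 and 7.98 in ER29 (fold 1.98 ± 0.16). DUSP4, a phosphatase that acts on ERK, was at 13 ± 0.57 in ER28 and 3.52 ± 0.34 in ER29 (fold 1.64), and 27.6 ± 0.846 in the parental line. VGF, a neurotrophin-induced secreted protein, stood at 25.1, 16.4 and 17.8 in ER28 and at 3.65, 2.84 and 3.49 in ER29 (fold 2.24 ± 0.35, BH-adjusted p = 0.000325). In each of these 4 genes the lowest ER28 library was above the highest ER29 library.

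The feedback inhibitors SPRY2 and SPRY1 had folds of 1.28 and 1.18, and CCND1, for cyclin D1, stood at 367, 295 and 337 in ER28 and at 137, 143 and 159 in ER29 (fold 1.18 ± 0.19, BH-adjusted p = 0.000514). CCND1 in ER28 was near the parental mean of 295. DUSP6, a phosphatase specific for ERK, had a fold of 0.33 that did not pass (BH-adjusted p = 0.144), and nor did EGR1, an immediate early transcription factor (0.72, BH-adjusted p = 0.587). MYC, whose RNA is induced by many growth signals, stood at 56.5, 50.2 and 53.2 in ER28 and at 115, 100 and 97.9 in ER29 (fold -0.96, BH-adjusted p = 0.00041). It thus went against the rest of the list. Of the 27 members of the RAS-ERK core list, 18.5% were called, below the 29.2% of all protein-coding members. In ER28 1 gene was called higher, and SHC2, SHC1, KSR1 and GAB1 were called lower. SHC2, an adaptor that links Trk receptors to RAS, had the widest of these folds (-0.81, from 3.86 ± 0.323 against 7.49 ± 0.515). With the libraries rescaled to one sum, 1 of the 27 was lower and 0 higher. The count of higher genes was 0 when any library but ER29 replicate 3 was left out and 2 without that one, and KSR1 lost its call without ER28 replicate 1 (BH-adjusted p = 0.0519), ER28 replicate 3 (0.0575) or ER29 replicate 3 (0.0935).

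**Figure D3:**
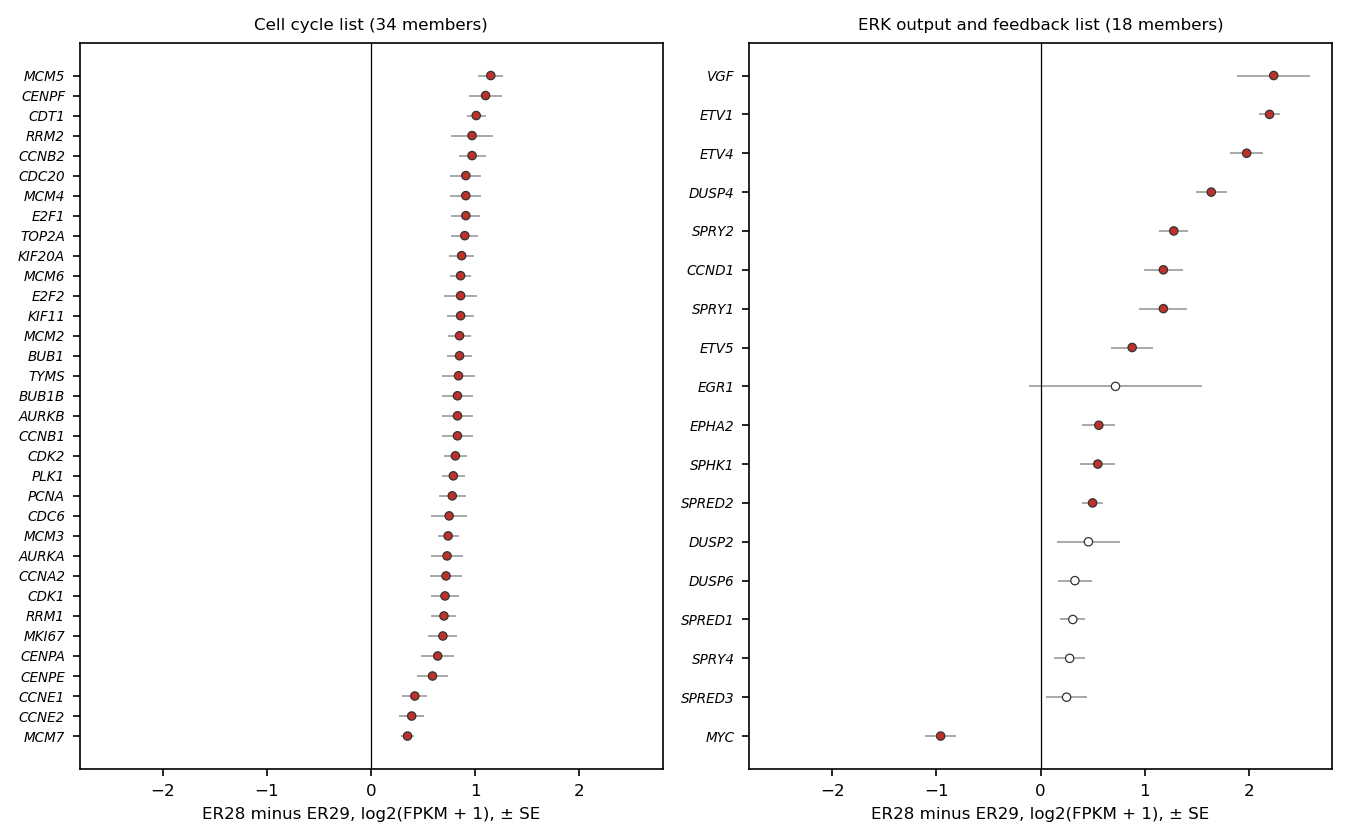
Fold of ER28 minus ER29 on the log2(FPKM + 1) scale with its standard error for every member of the cell cycle list (left, 34 genes) and of the ERK output and feedback list (right, 18 genes), ordered by fold. Filled points were called and open points were not. All 34 cell cycle genes lie to the right of 0, and in the ERK list MYC alone lies to the left.

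All 34 genes of the cell cycle list were members, and all 34 were called higher in ER28, against 18% of protein-coding members. Their folds ran from 0.35 (MCM7) to 1.15 (MCM5), with a median of 0.83. The count was 32 to 34 when 1 library was left out and 33 or 34 under the other settings that kept all 34 genes. MCM5 (ENSG00000100297, chromosome 22), a subunit of the helicase that opens DNA for replication, stood at 64.2, 61.3 and 70.0 FPKM in ER28 and at 27.5, 27.4 and 31.5 in ER29. The parental mean was 66.9, from which ER28 differed by -0.04 (BH-adjusted p = 0.837) and ER29 by -1.19 (BH-adjusted p = 1.04e-06). Over the list, 18 of the 34 genes were called below the parental line in ER28 (median -0.36) and all 34 in ER29 (median -1.14). CDT1, which loads that helicase, stood at 23.7, 18.7 and 23.4 in ER28 and at 10.8, 10.1 and 10.1 in ER29. CENPF, a kinetochore protein on chromosome 1, stood at 143, 141 and 137 against 59.2, 63.2 and 73.2. RRM2, a subunit of the enzyme that makes deoxynucleotides, was at 125 ± 12.5 in ER28 and 63.3 ± 8.27 in ER29 (SD, n = 3), both below the parental 195 ± 4.10. In bulk RNA, fewer cells in cycle and less RNA per cycling cell cannot be told apart.

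Promoters of 29 of the 34 cell cycle genes were found in RefSeq (GRCh38.p14), and the 250 bases before the start site were searched on both strands. Genes of mitosis are known to be controlled through a CHR element (TTTGAA or TTCGAA) together with CCAAT boxes, and genes of replication through E2F sites (searched as TTTGGCGC or TTTCGCGC). A CHR sequence was present in 11 of the 29 (37.9%), against 927 of 9810 promoters of protein-coding members (9.45%). The E2F sequence was in 4 (13.8%) against 162 (1.65%), and CCAAT in 22 (75.9%) against 3457 (35.2%). A CHR sequence and a CCAAT together were in 10 (34.5%) against 386 (3.93%). These shares describe letters in a window and do not show binding. The promoters of CCNB2 (cyclin B2, chr15:59104896-59105145, + strand), CDC20 (an activator of the anaphase-promoting complex, chr1:43358731-43358980, + strand) and E2F1 (an E2F factor, chr20:33686386-33686635, - strand) are printed as examples of the motifs. They are written 5′ to 3′ on the strand of the gene, and capitals mark the CHR, E2F and CCAAT sequences on either strand.
CCNB2: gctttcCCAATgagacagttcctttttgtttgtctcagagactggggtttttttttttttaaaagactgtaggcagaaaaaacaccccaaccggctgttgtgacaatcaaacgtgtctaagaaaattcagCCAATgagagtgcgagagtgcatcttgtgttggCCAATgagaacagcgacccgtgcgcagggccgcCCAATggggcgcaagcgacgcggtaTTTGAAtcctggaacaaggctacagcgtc
CDC20: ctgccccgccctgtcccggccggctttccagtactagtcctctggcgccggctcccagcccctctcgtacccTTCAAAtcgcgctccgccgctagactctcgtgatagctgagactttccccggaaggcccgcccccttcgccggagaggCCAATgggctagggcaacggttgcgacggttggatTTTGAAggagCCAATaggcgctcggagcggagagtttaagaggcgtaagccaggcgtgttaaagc
E2F1: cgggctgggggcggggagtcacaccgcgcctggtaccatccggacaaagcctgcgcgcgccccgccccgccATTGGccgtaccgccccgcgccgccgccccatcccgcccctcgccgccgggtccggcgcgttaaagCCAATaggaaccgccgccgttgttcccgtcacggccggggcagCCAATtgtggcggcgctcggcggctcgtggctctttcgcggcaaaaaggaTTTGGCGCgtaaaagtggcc

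The CCNB2 promoter holds 4 CCAAT sequences before a CHR sequence, and CDC20 holds 2 with CHR sequences on both strands. E2F1 holds 3 CCAAT sequences and an E2F sequence close to the start site. CCNB2 stood at 43.2, 36.8 and 39.7 FPKM in ER28 and at 19.1, 19.2 and 21.3 in ER29 (fold 0.97). CDC20 stood at 34.0, 28.0 and 34.3 against 16, 14.6 and 19.2 (fold 0.91), and E2F1 at 22.3, 20.0 and 22.1 against 11.4, 9.67 and 12.0 (fold 0.91).

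Histone genes moved with the cell cycle list. This group was picked after its values were seen, from the symbols that begin with HIST, and it gets no test of its own. Replication-dependent histone mRNAs lack a poly(A) tail and are made in S phase, and ribosome-depleted total RNA retains them. Of the 30 protein-coding members with such a symbol, all 30 had a positive fold and 28 were called higher in ER28 (26 to 28 when 1 library was left out), with a median of 0.92. HIST2H2AC, an H2A gene on chromosome 1, stood at 879, 729 and 849 in ER28 and at 326, 275 and 291 in ER29. HIST1H1B, a linker histone gene on chromosome 6, stood at 920, 710 and 797 against 426, 365 and 370. The 20 genes on chromosome 6 had a median fold of 0.87 and the 9 on chromosome 1 a median of 1.33. These genes are close copies of each other, so the share of reads given to each is uncertain.

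Regulators of the G1 phase split. Of 13 members, CCND1, CDKN2D, RBL1, CCND3 and RB1 were called higher in ER28 and CDK6, CDKN2A and RBL2 were called lower. CDK6, a kinase partner of cyclin D1, stood at 95.8, 96.0 and 86.3 in ER28 and at 220, 213 and 199 in ER29. ER28 was below every other library (fold -1.17 ± 0.14, BH-adjusted p = 4.53e-05). CDKN2A, the locus of the CDK inhibitor p16, was at 4.63 ± 0.394 in ER28 and 10.9 ± 1.54 in ER29 (fold -1.07). The count of higher genes was 2 without ER28 replicate 1 and 3 without ER28 replicate 3 or ER29 replicate 1, and CDKN2D was among those lost (BH-adjusted p = 0.113, 0.0778 and 0.104). In the list of the MYC family and its targets, 22 genes were members, of which MYCN, LDHA, LIN28B, ODC1 and MXD3 were called higher and MYC, MXD4 and MAX lower. MYCN, the neuroblastoma oncogene, stood at 11.4, 10.1 and 10.8 in ER28, near the parental mean of 13.4, and at 3.87, 3.31 and 4.08 in ER29 (fold 1.31 ± 0.19, BH-adjusted p = 0.000246). MYCN and MYC therefore differed in opposite directions between the lines.

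Among 21 members of the apoptosis list, 4 were called higher in ER28, a share close to that of all protein-coding members, and 0 lower. BIRC5, or survivin, which also acts in mitosis, was at 46.3 ± 3.38 in ER28 and 24.3 ± 2.68 in ER29 (fold 0.91). MCL1, an anti-apoptotic BCL2 family member on chromosome 1, stood at 135, 124 and 135 against 81.4, 76.6 and 77.1 (fold 0.74, BH-adjusted p = 0.00242). BAX, which promotes cell death, was higher by 0.49. Of 9 ABC transporter members, ABCB4 was higher (0.91) and ABCA2 and ABCA3 lower (-0.42 and -0.32), and neither of the lower calls held without ER28 replicate 3, ER29 replicate 1 or ER29 replicate 2. ABCB1, the drug efflux pump P-glycoprotein, stood at 4.03 ± 0.191 in ER28 and 6.76 ± 0.704 in ER29 (fold -0.62, BH-adjusted p = 0.0546).

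Neuroblastoma identity genes were called in both directions. Of 24 members of the noradrenergic list, 6 were called higher in ER28 and 7 lower, with a median of -0.08. LMO1, a transcription cofactor, stood at 12.1, 11.5 and 11.0 in ER28 and at 33.6, 30.3 and 32.2 in ER29 (fold -1.40 ± 0.09, BH-adjusted p = 4.66e-07). The core factor HAND2 was close, at 370 ± 20.7 against 396 ± 20.8 (SD, n = 3; BH-adjusted p = 0.459). DBH, the enzyme that makes noradrenaline, was lower in ER28 by 0.67 on the log2 scale (155 against 248), and DDC, the decarboxylase before it, was higher by 0.69 (20.3 against 12.2). Both are low against parental means of 812 and 44.2. Of 10 genes taken to define the sympathetic lineage, 9 were members, of which 5 were called lower in ER28, among them STMN2, ISL1, DBH and PHOX2A, and 1, GATA3, higher, with a median of -0.41. After quantile normalisation 7 were lower and 0 higher, with a median of -0.66, and GATA3 also lost its call (0 higher) without ER28 replicate 1, ER28 replicate 3, ER29 replicate 2 or ER29 replicate 3. TH (tyrosine hydroxylase) was below 0.2 in the means of both lines.

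In the neural crest and mesenchymal list, 5 of 13 members were higher in ER28 (VIM, ZEB2, TNC, FN1 and TWIST1) and 3 lower (FOSL2, CD44 and ZEB1). Without ER29 replicate 2 the higher count was 3. VIM, for the filament protein vimentin, stood at 1160, 1020 and 1187 in ER28 and at 562, 511 and 595 in ER29 (fold 1.01 ± 0.13, BH-adjusted p = 8.89e-05). CD44, a hyaluronan receptor, stood at 1.96, 1.52 and 1.46 in ER28 and at 9.92, 8.09 and 5.28 in ER29, the highest line of the series (fold -1.70 ± 0.21). These markers of one cell state thus did not move together.

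Neuronal genes also split, with 6 of 19 members called higher in ER28 and 4 lower. DCX, a microtubule protein of migrating neurons, stood at 11.5, 10.4 and 9.31 in ER28 and at 2.47, 2.68 and 2.42 in ER29 (fold 1.69). ER28 was close to the parental mean of 13.8. GAP43, of growth cones, and INA, a neurofilament protein, had folds of 1.16 and 1.17, and both lines were below the parental means of 23.5 and 17.6. SYT1, the calcium sensor of synaptic vesicles, stood at 41.0, 46.1 and 37.2 in ER28, near the parental mean of 40.7, and at 112, 112 and 95.6 in ER29 (fold -1.34 ± 0.13, BH-adjusted p = 5.88e-06). SNAP25 and STMN2, of vesicle fusion and of growing axons, were also lower in ER28 (-0.72 and -0.81).

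Of 12 neuropeptide and granin members, VGF, VIP and NPY were called higher in ER28 and ADM, SCG2, RAMP1 and SCG5 lower. VIP, vasoactive intestinal peptide, stood at 7.02, 5.06 and 4.82 in ER28, the highest of the series, and at 1.74, 1.71 and 0.836 in ER29. NPY, neuropeptide Y, stood at 34.5, 24.5 and 34.4 against 8.12, 12.3 and 21.9, with both lines below the parental mean of 175. RAMP1, a subunit of receptors for CGRP and adrenomedullin, was lower in ER28 (10.9 ± 2.04 against 20.1 ± 1.98), as was adrenomedullin itself.

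Receptors for acetylcholine were among the genes called lower in ER28. Of 15 members in the cholinergic and monoamine list, 8 were called lower (53.3%, against 11.2% of protein-coding members) and 1, DDC, higher, with a median of -0.55. CHRM1, a muscarinic acetylcholine receptor, stood at 6.76, 6.38 and 5.90 in ER28 and at 25.3, 22.9 and 22.3 in ER29. ER29 was above all other libraries, and ER28 was near the parental mean of 4.51 (fold between the lines -1.74 ± 0.16, BH-adjusted p = 6.3e-06). SLC18A3, which loads acetylcholine into vesicles, stood at 1.41, 1.52 and 1.18 against 7.07, 5.93 and 3.55. The nicotinic receptor subunits CHRNA3, CHRNA7, CHRNA5 and CHRNB4 had folds of -0.89, -0.71, -0.69 and -0.55. CHRNA3 was the most abundant of them by FPKM, at 84.6, 90.6 and 82.0 in ER28 and 164, 165 and 149 in ER29.

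**Figure D4:**
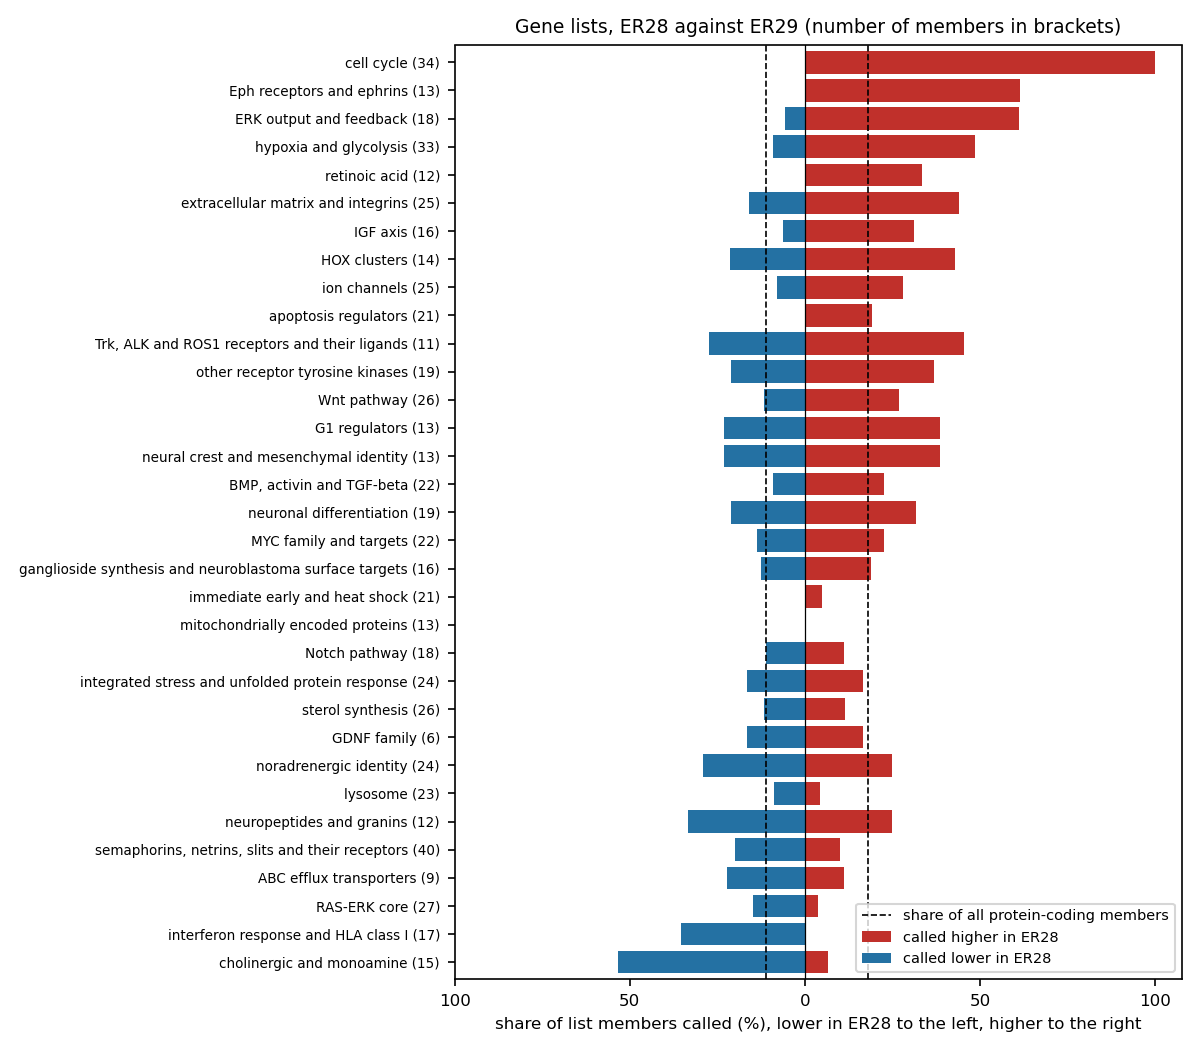
Share of the members of each of 33 gene lists called higher in ER28 (red, to the right) or lower (blue, to the left) in percent, with the number of members in brackets. Lists are ordered by the share higher minus the share lower, and dashed lines mark the shares over all protein-coding members (18% and 11.2%). The cell cycle list reaches 100% to the right, and the cholinergic and monoamine list reaches furthest to the left, 53.3%.

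Glycolytic enzymes were among the genes called higher in ER28, and a few hypoxia-linked genes were called lower. Of 33 members in the hypoxia and glycolysis list, 16 were called higher and 3 lower, with a median of 0.24. Most of the list was below the parental line in both lines. In ER28, 28 of the 33 were called below it and 2 above (median -0.77), and in ER29 29 below and 4 above (median -1.07). PFKP, a phosphofructokinase, stood at 40.7, 32.8 and 34.1 in ER28 and at 17.2, 15.3 and 12.4 in ER29 (fold 1.21 ± 0.14, BH-adjusted p = 3.48e-05). GAPDH was at 1297 ± 116 in ER28 and 785 ± 64.8 in ER29 (fold 0.72), and PFKFB3, PDK1, PGAM1, ENO1 and LDHA were also among the higher genes. LDHA, which reduces pyruvate to lactate, had a fold of 0.55, and 0.32 after quantile normalisation, with both lines (means 235 and 160) far below the parental mean of 742. The 3 lower genes were ADM, EPAS1 and NDRG1. HIF1A, the other main hypoxia-inducible factor, was slightly higher in ER28 (103, 102 and 106 against 89.1, 85.2 and 90.3; fold 0.23, BH-adjusted p = 0.00904), while VEGFA, a target of both factors, did not pass (-0.29, BH-adjusted p = 0.0831).

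Of 24 members of the integrated stress and unfolded protein list, the amino acid genes SLC7A5, PSAT1, ASNS and PHGDH were called higher (0.71, 0.62, 0.56 and 0.52). VLDLR, HERPUD1 and the chaperones HSPA5 and HSP90B1 were called lower, and without ER28 replicate 1 or 2 or ER29 replicate 1 only 1 lower call remained. ASNS, asparagine synthetase, stood at 97.9, 94.3 and 101 in ER28 and at 69.4, 62.5 and 66.5 in ER29. In the sterol list, 3 of 26 members were called each way: PMVK, FDPS and EBP higher (0.54, 0.50 and 0.38), TM7SF2, LSS and SC5D lower (-0.57, -0.54 and -0.42). PMVK and FDPS lie on chromosome 1, and LSS, the lanosterol synthase, on chromosome 21. TM7SF2 lost its call without ER28 replicate 1, ER29 replicate 1 or ER29 replicate 2. In the immediate early and heat shock list 1 of 21 members was called, HSPB1 (0.42), and none was without ER28 replicate 1, ER28 replicate 3 or ER29 replicate 2, while 3 were without ER28 replicate 2. Lysosome genes gave 3 calls among 23 members, 1 higher and 2 lower, the latter SQSTM1 and TFE3 (-0.34 and -0.26). Without ER28 replicate 1 or 2 or ER29 replicate 2 or 3 only 1 gene was lower. The higher count was 4 without ER28 replicate 2 and 2 without ER29 replicate 1 or 3. The shares called in the sterol, immediate early and lysosome lists were 23.1, 4.76 and 13%. All were below the 29.2% of protein-coding members. None of the 13 mitochondrially encoded protein genes was called by limma (lowest BH-adjusted p = 0.384, and 0 of 13 at an unadjusted p under 0.05), and their folds lay between -0.15 and 0.09.

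Interferon genes were called in one direction. Of 17 members in the interferon and HLA class I list, 6 were called lower in ER28 (35.3%, against 11.2% of protein-coding members) and 0 higher, and with the libraries rescaled to one sum 3 were lower. OAS1, an antiviral enzyme, stood at 1.05, 1.16 and 1.32 in ER28 and at 3.17, 3.23 and 2.89 in ER29, the highest of the series (fold -0.91, BH-adjusted p = 0.000576). HLA-C, an HLA class I heavy chain, stood at 9.60, 7.46 and 9.13 against 14.7, 12.8 and 13.6 (fold -0.60).

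Matrix and adhesion genes differed in both directions. Of 25 members in that list, 11 were called higher in ER28 and 4 lower, and the higher count was 7 without ER28 replicate 3 and 6 without ER29 replicate 2. COL4A2 and COL4A1, the neighbouring genes of the main chains of basement membrane collagen, stood at 32.0 ± 2.45 and 19.3 ± 1.25 in ER28 and at 9.54 ± 0.468 and 6.66 ± 0.745 in ER29 (SD, n = 3; folds 1.65 and 1.40). VCAN, the proteoglycan versican, was at 83.9 ± 3.73 against 36.5 ± 5.36. ITGA4, an integrin subunit, stood at 1.76, 2.02 and 1.86 in ER28, the lowest of the series, and at 6.16, 6.45 and 5.6 in ER29 (fold -1.30). COL6A1 and COL6A2, on chromosome 21, were lower in ER28 by 1.05 and 0.67 on the log2 scale. Fibroblast markers moved in the same direction as the collagen IV genes: 4 of their 6 members, PDGFRA, LUM, PDGFRB and THY1, were called higher in ER28, and the 9 markers summed to between 81.6 and 84.5 FPKM in ER28 and between 42.4 and 48.1 in ER29. COL1A2, DCN and FAP were below 1 FPKM in the means of both lines, COL3A1 was lower in ER28 (4.17 against 6.60, fold -0.55, not called), and the part of such cells in the result was not tested. Of the other markers, no gene of the endothelial and leukocyte lists was a member, with sums of at most 2.02 FPKM and with PECAM1, AIF1, CD3E and HLA-DRA at 0 in all 6 libraries. Schwann cell markers summed to between 20.1 and 22.1 in ER28 and between 29.8 and 33.1 in ER29, most of it PMP22 (called lower, -0.61), with FOXD3 and MPZL2 at 0, and epithelial markers summed to at most 4.80, with KRT5 and KRT14 at 0. CLDN4 was called lower among the latter (BH-adjusted p = 0.0498), and not without any 1 of the 6 libraries.

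Wnt genes were called in both directions, with 7 of 26 members called higher (DKK1, LGR5, FZD4, FZD1, SFRP1, DKK2 and TCF7L1) and 3 lower (LGR4, FZD5 and DKK3). LGR5, a receptor for R-spondins, stood at 144, 147 and 150 in ER28 and at 42.6, 46.9 and 53.1 in ER29 (fold 1.61 ± 0.23, BH-adjusted p = 0.00015). ER28 was the highest line and ER29 was near the parental mean of 34.9. The Wnt receptors FZD4 and FZD1 stood at 6.66 ± 0.571 against 2.39 ± 0.0702 and at 12.3 ± 1.03 against 5.55 ± 0.452. In the BMP, activin and TGF-beta list, BAMBI, ID4, LTBP1, CHRDL1 and GDF11 were called higher out of 22 members, and TGFB1 and BMPR1A lower. BAMBI, a decoy receptor, stood at 38.8, 33.4 and 38.4 in ER28 and at 15.3, 12.2 and 14.6 in ER29, both above the parental mean of 1.75. With the 6 libraries alone in the fit 9 of these genes were higher, and BMPR1A lost its call (1 gene lower) without ER28 replicate 1, ER28 replicate 3, ER29 replicate 1 or ER29 replicate 3. In the Notch list, 4 of 18 members were called: the receptor NOTCH4 and the target HEY1 were higher in ER28 (0.86 and 0.84) and the ligands DLL3 and DLL1 lower (-0.93 and -0.79, the latter -1.63 with a pseudocount of 0.1). In the retinoic acid list, CRABP2, a carrier of retinoic acid, stood at 119, 91.8 and 109 in ER28 and at 26.2, 22.6 and 23.4 in ER29 (fold 2.09 ± 0.30, BH-adjusted p = 0.000207). STRA6, CRABP1 and RARG were called as well (4 of 12 members), but without ER28 replicate 1, ER28 replicate 3 or ER29 replicate 2 only CRABP2 was.

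Guidance genes included calls in both directions. Of 13 Eph receptor and ephrin members, 8 were called higher in ER28 and 0 lower (median 0.43), but the count was 4 without ER28 replicate 1 and 5 without ER28 replicate 3, ER29 replicate 2 or ER29 replicate 3. EPHB4 stood at 47.5, 42.1 and 52.8 in ER28 and at 35.2, 32.7 and 32.3 in ER29 (fold 0.49, BH-adjusted p = 0.00879), and EPHB2 at 11.7, 10.0 and 10.2 against 8.19, 7.79 and 7.32 (fold 0.41). Of 40 semaphorin, netrin and slit members, 4 were higher (NRP1, SEMA7A, UNC5B and NEO1) and 8 lower. Together these are 30%, close to the 29.2% called among all protein-coding members. NTNG1, a membrane-anchored netrin, stood at 5.29, 7.33 and 4.36 in ER28 and at 18, 22.9 and 19.4 in ER29, against a parental mean of 0.161 (fold between the lines -1.68 ± 0.16, BH-adjusted p = 5.76e-06). ROBO2, a slit receptor, stood at 1.85, 1.68 and 1.66 in ER28, the lowest of the series, and at 6.73, 7.54 and 6.10 in ER29. In that list 2 genes were higher without ER28 replicate 2 or 3 or ER29 replicate 2 or 3, and 5 were lower without ER28 replicate 3.

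Of 25 ion channel members, 7 were called higher in ER28 and 2, CACNA2D1 and SCN3B, lower (1 without ER28 replicate 1, ER28 replicate 3 or ER29 replicate 2). SCN9A, the sodium channel Nav1.7 of sympathetic and pain-sensing neurons, stood at 18.6, 21.2 and 18.4 in ER28 and at 3.12, 3.13 and 2.24 in ER29 (fold 2.42 ± 0.26, BH-adjusted p = 1.73e-05). In the list of ganglioside synthesis and neuroblastoma surface targets, GPC3, L1CAM and B4GALNT1 were called higher out of 16 members and GPC6 and ST8SIA1 lower. GPC3 was the only one higher without ER28 replicate 1 or ER29 replicate 2, and GPC6 (-0.68) the only one lower without ER28 replicate 3, ER29 replicate 2 or ER29 replicate 3. In the HOX clusters, 6 of 14 members were higher and 3 lower (1 without ER28 replicate 3 or ER29 replicate 2). Within the HOXD cluster on chromosome 2, HOXD11, HOXD13 and HOXD10 were higher in ER28 (1.11, 0.87 and 0.76) and HOXD8, HOXD9 and HOXD4 were lower (-0.71, -0.51 and -0.49). The genes at one end of the cluster were thus called in one direction and those nearer the other end in the opposite one, and the levels of the first group were below 4 FPKM in all 6 libraries.

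ER29 differed from the parental line in more members than ER28 did. Of the members, 9404 were called between ER29 and the parental line (53.8%; 24.9% higher and 28.9% lower in ER29). Between ER28 and the parental line 6663 were called (38.1%; 16.2% higher and 21.9% lower in ER28). Both comparisons use the same 3 parental libraries. Of the 2453 members called higher in ER28 than in ER29, 900 (36.7%) were called below the parental line in ER29 and not called in ER28, 847 (34.5%) were below it in both lines, and 337 (13.7%) were above it in ER28 and not called in ER29. Of the 1899 called lower in ER28, 881 (46.4%) were above the parental line in ER29 and not called in ER28, 455 (24%) were above it in both and 252 (13.3%) were below it in ER28 and not called in ER29. A smaller set of 125 members was called on opposite sides of the parental line, 91 of them above it in ER28 and below it in ER29. CDH11, a cadherin, stood at 79.6, 83.9 and 81.3 in ER28 and at 21.1, 21.3 and 17.5 in ER29, around a parental level of 34.3 ± 1.72. EBF1, a transcription factor, stood at 13, 11.6 and 10.7 in ER28 and at 1.90, 2.07 and 2.09 in ER29, around a parental level of 3.17 ± 0.169.

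Neighbouring genes on chromosome 1 were shifted together. Protein-coding members were placed in gene order in 400 windows of 30 genes, and 1 window had a median fold at least 0.5 from the overall median: GPR89B to ANXA9 on chromosome 1, with a median of 0.59 and 23 of 30 genes called higher in ER28. It holds 6 of the histone genes described above, all called higher, and the median of its other 24 genes was 0.49, with 17 called higher (a split chosen after the windows were seen). The median of all 30 genes was 0.57 after quantile normalisation, and in windows of 50 genes the highest median was 0.45 (NOTCH2 to ANXA9). The stretch from GPR89B on was chosen after the windows were seen, and its start is the first gene of the highest window. Its contrast with the genes before it is therefore a description and not a test. From GPR89B to the end of the chromosome, 460 of 523 protein-coding members had a positive fold, 321 were called higher (278 to 310 without 1 library) and 17 lower, with a median of 0.36. All 17 windows there had medians between 0.26 and 0.59, while the 24 windows before it lay between -0.08 and 0.29, with 122 of 720 genes called higher and 64 lower. Without its 8 histone genes the median there was also 0.36, with 313 of 515 genes called higher. Against the parental line the same 523 genes had a median of 0.25 in ER28 and -0.11 in ER29. They include MCL1, CRABP2, DDR2, ITPKB and CENPF, 1 of the 34 cell cycle genes, and 14.4% of the protein-coding members called higher. No DNA copy number was measured in these libraries.

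**Figure D5:**
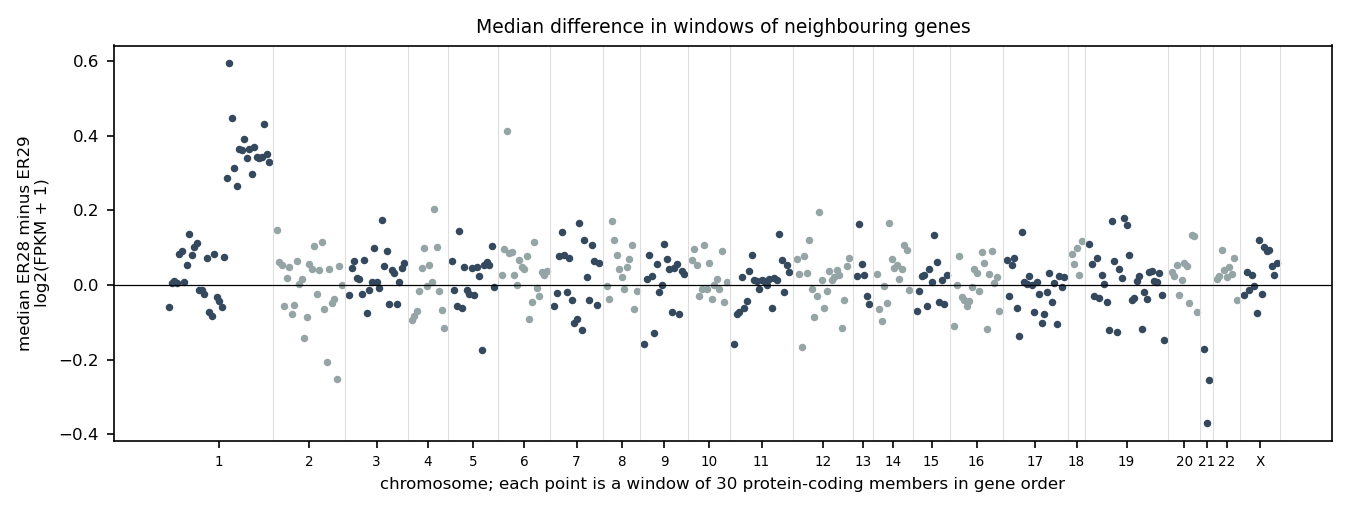
Median fold of ER28 minus ER29 on the log2(FPKM + 1) scale in 400 windows of 30 protein-coding members in gene order, by chromosome. The windows at the end of chromosome 1 stand between 0.26 and 0.59, and a window of chromosome 21 is the lowest at -0.37.

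Chromosome 21 was shifted the other way. A lower threshold of 0.3 from the overall median, chosen after the windows were seen, marked 16 windows, 14 of them on chromosome 1, 1 on chromosome 6 (KIF13A to BTN3A2, median 0.41) and 1 on chromosome 21 (SYNJ1 to DYRK1A, -0.37). The chromosome 6 window holds 11 histone genes, all called higher, and the median of its other 19 genes was -0.01, with 5 called higher. Chromosome 21 as a whole was also described only after the windows were seen. Of its 113 protein-coding members, 100 had a negative fold, 61 were called lower in ER28 (50 to 55 without 1 library) and 3 higher, with a median of -0.30. With the libraries rescaled to one sum 41 were lower. Against the parental line their median was -0.09 in ER28 and 0.17 in ER29. COL6A1, a chain of collagen VI, stood at 19.9, 18.7 and 21.3 in ER28 and at 47.0, 41.8 and 39.2 in ER29, and ETS2, a transcription factor, at 18.7, 17.0 and 19.3 against 35.4, 31.7 and 31.8. Both genes were chosen from the 8 lowest folds of the chromosome after their values were seen, and in both the ER29 libraries were above all ER28 libraries.

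No protein-coding gene met the rule set here for on in one line and off in the other. With a mean of at least 5 FPKM in one line and under 0.25 in the other, 9 members met the rule, all of them short noncoding or unannotated genes listed at 0 in all 3 libraries of one line. Of these, 3 were not called, SNORD116-14 (BH-adjusted p = 0.0885), ENSG00000252310 (0.0732) and ENSG00000265245 (0.0635). A gene at 0 in all 3 libraries of one line could be a member only through the other line. The lack of overlap in these 9 genes was therefore set by the filter and is no support for a difference. At a lower level, 106 members reached FPKM 1 in all ER28 libraries and in no ER29 library, and 218 the reverse. Of these, 76 and 147 were called, and their lack of overlap was also set by how they were picked. Among the 218, the protein-coding gene CHODL stood at 0.0266, 0.0161 and 0.041 in ER28 and at 1.32, 1.39 and 1.67 in ER29. SNORD116-24 (ENSG00000207279, chromosome 15), a small nucleolar RNA of an imprinted cluster, was listed at 0 in ER28 and at 90.5, 71.7 and 79.6 in ER29. SNORD116-14, another copy of the cluster, was listed at 0 in ER28 and at 90.5, 35.9 and 39.8 in ER29, so that values of such short genes move in steps of what 1 read is worth. SNORD116-15, the most abundant copy, was present in both lines, at 314, 292 and 188 in ER28 and at 407, 466 and 398 in ER29.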

How the data were processed

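RNA of 6 lines was sequenced in 3 libraries each, 18 libraries in all. Libraries were made from ribosome-depleted total RNA and run on HiSeq and NextSeq instruments, per the labels' protocols. Which library ran on which instrument is not stated, so the part of the instrument in these differences could not be tested. STAR 2.5.3, featureCounts, Subread 1.5.0-p1, STAR-Fusion and build hg19 are named in the submitters' processing notes, but neither the tool behind the FPKM nor its strand setting is. The deposited values are FPKM per gene, computed by the authors, and no counts were used here, so the precision rests on the spread between 3 libraries.

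The 19799 genes that reached FPKM 1 in 3 or more of 18 libraries were fitted on log2(FPKM + 1) with limma 3.58.1 in R 4.3.3, with an intensity trend and 1 coefficient per line (12 residual degrees of freedom). The contrast ER28 minus ER29 was tested two-sided with Benjamini-Hochberg adjustment over all 19799 genes. The fit was also run on simulated normal values drawn with its own estimate of the spread. That run does not show how the fit does on these libraries. An exact permutation test of 3 against 3 libraries cannot go below p = 0.1. A fold on this scale understates changes of low genes. Symbols, gene types and gene order came from GENCODE v29 (52514 of 63657 identifiers found, 82.5%), and no coordinates of that annotation are given. Promoter sequences and their GRCh38.p14 coordinates are RefSeq's.

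The column E29rep1 was taken as ER29 replicate 1. Named genes are the 12 highest and 12 lowest called protein-coding members without overlap, the drug's targets, up to 4 called genes per list with those needed for small counts, 10 genes on opposite sides of the parental line, and genes on in 1 line only. Further genes in the text were chosen after their values were seen. The members and the 33 gene lists (6 more of markers) were chosen with earlier results of these data known. Some genes of the lists are not reported here. NEFL and ACACA were not matched in the annotation. Genes with 3 libraries at FPKM 1, just inside the rule, numbered 1005 (median 1.02), and those with 2, just outside, 1004 (median 0.748). Alternatives changed the pseudocount, filter, scaling, libraries, gene types, trend and replicate block, 1 at a time.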

Additional observations from a re-analysis of the deposited data

Results flagged for a closer look

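10 protein-coding genes were picked because their effects against the parental line had opposite directions in ER28 and ER29, both called by limma, and because the ER28 and ER29 libraries differed in the test of the difference itself. They are the 10 widest of 113 such protein-coding genes, 83 of which were above the parental line in ER28 and below it in ER29, as all 10 were. ETV1, an ERK-induced transcription factor, had a difference of 2.20 on the log2(FPKM + 1) scale. MECOM and EBF1, transcription factors known from blood cell development, had differences of 2.10 and 2.08. CDH11, a cadherin, had 1.98, PLD5, of the phospholipase D family, 1.92, and the scaffold protein NEDD9 1.91. NFASC, a neural cell adhesion molecule, had 1.91, ISLR2, which promotes axon growth, 1.89, the prostaglandin receptor PTGER2 1.78 and SERTAD4 1.76. MECOM stood at 11.7, 10.8 and 11.6 FPKM in ER28, at 1.48, 2.11 and 2.09 in ER29 and at 4.61 ± 0.443 (SD, n = 3) in the parental line. ISLR2 stood at 122, 97.6 and 115 in ER28, at 29.2, 26.3 and 32.5 in ER29 and at 55.4 ± 2.42 in the parental line. Both comparisons share the 3 parental libraries.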

How the results depend on the processing

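Each count of called members was refitted under 16 alternatives. The number called lower in ER28, 1899 as reported, was 907 with the libraries rescaled to one common sum, and 1241 to 1977 when 1 of the 6 libraries was left out. The number called higher, 2453 as reported, was 1702 to 2463 when 1 library was left out. It lay between 1668 (rescaled) and 2540 (replicate block) otherwise. Under quantile normalisation 2249 were higher and 1953 lower, and 3585 of the calls were those reported. With the 6 ER28 and ER29 libraries alone the counts were 2064 and 1637, and with a filter of FPKM 5, which keeps 12391 members, 2351 and 1532. The single chromosome window at least 0.5 from the overall median became 0 with windows of 50 genes. Of 161 named genes in 16 alternatives, 2408 results kept direction and call, 138 lost the call, 5 gained it and 0 reversed. Named genes left out by the filter of FPKM 5, or where protein-coding genes alone were fitted, have no result in that setting. The folds of MET, DLL1, CACNA1C, HOXD11 and HOXD13, all low, grew over 1.5 times with a pseudocount of 0.1 (to -1.23, -1.63, 1.78, 2.13 and 1.53). Rescaling left 0 genes lower in the ABC transporter and lysosome lists and 1 in the stress list, and with the 6 libraries alone 5 genes of the hypoxia list and 7 of the matrix list were lower and 5 of the Notch list higher. The cause of these changes was not tested.

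With the replicate number as a block, 2540 members were higher and 1973 lower, and 4199 of the calls were those reported. Deviations of same-numbered ER28 and ER29 libraries correlated at 0.12, 0.34 and -0.0581 for numbers 1 to 3, so the numbers were not taken to pair the libraries.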
